A study of Rattus norvegicus with 8 samples.

Results

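This report describes the genes that make, break down and act on cyclic AMP and cyclic GMP, as measured in rat hippocampus with 1-colour Agilent arrays. Members were the non-control probes whose RefSeq accession matched a gene with a symbol starting Pde or Adcy followed by a number, or starting Prkar, Prkac, Prkg, Gucy or Akap. The rule used no measured value. It found 57 genes on 68 probes, out of 12206 named genes and 41012 non-control probes.

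Male Wistar rats on 2 feeds were compared. The control rats had standard CE-2 feed and the CCH rats had the same feed with 0.1% coral calcium hydride powder, from the age of 6 weeks until they were killed at 8 weeks. Each hippocampal RNA was labelled with Cy3 and hybridised to 1 array, and the titles and treatment labels name no other agent or genotype. Free-text notes on the same samples speak of a lesion model with L-DOPA or saline injections, which contradicts the titles, and those notes were not used. All control arrays came from slide 1 and all CCH arrays from slide 2, and the slides were scanned separately. Feed, slide and scan cannot be told apart in any comparison. The design text speaks of 8 rats in 2 groups and the titles of replicates 1 to 4, but nothing says outright that each array is a separate rat. P-values therefore measure the spread between these samples, which may be technical.

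The enzymes form a chain. Adenylyl cyclases make cyclic AMP under the control of G proteins and calcium, guanylyl cyclases make cyclic GMP in answer to nitric oxide, peptides or calcium sensors, and phosphodiesterases (PDEs) hydrolyse both messengers. Cyclic AMP releases the catalytic subunits of protein kinase A (PKA) from their regulatory subunits, A-kinase anchoring proteins (AKAPs) hold PKA near its substrates, and cyclic GMP activates protein kinase G (PKG). In hippocampal neurons the cyclic AMP pathway is known for its part in long-term potentiation and in transcription driven by the factor CREB.

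A level below is the log2 processed signal of a probe minus the 75th percentile of that array, and a difference is the CCH mean minus the control mean on this scale. That percentile was 611 ± 61.0 (SD, n = 4) signal units on control arrays and 732 ± 110 (SD, n = 4) on CCH arrays (two-sided exact permutation p = 0.0857, smallest possible 0.0286). Between 76.3% and 79.9% of spots per array were well above background, and 0 were saturated. The median local background was 33.3 ± 0.957 signal units (SD, n = 4) on control arrays and 34.9 ± 0.25 (SD, n = 4) on CCH arrays, with no overlap (two-sided exact permutation p = 0.0286, the smallest possible). All 8 hippocampal neuron markers examined were detected, with Neurod6 between 2.28 and 2.70. All 8 striatal neuron markers examined were also well above background on 4 or more arrays, so detection does not by itself identify the tissue. Among markers of other cells, the mean centred levels of oligodendrocytes and microglia did not overlap between the groups. Those of choroid plexus, striatal neurons, astrocytes, meninges and vessel-associated cells overlapped. Oligodendrocyte markers were higher in CCH for 9 of 9 genes (mean centred level -0.35 to -0.09 in controls, 0.02 to 0.35 in CCH), and microglial markers were lower for 8 of 9 (0.07 to 0.27 against -0.28 to -0.02). An adjusted p under 0.05 in limma was reached by 1 of the 9 microglial and 0 of the 9 oligodendrocyte markers, beside 0.174% of all tested probes. Choroid plexus markers were lower for 9 of 9 genes, with CCH 2 and CCH 4 at -3.52 and -3.51 and the other 6 arrays between -0.50 and 1.99. Their part in the values below was not tested, although some values are also given with the choroid plexus score as a covariate. In whole tissue, fewer cells of a type and less RNA per cell cannot be told apart.

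Of the 57 member genes, 48 had a tested probe, meaning one that 4 or more of the 8 arrays showed well above background, and they were read from 58 probes. A single member probe, that of Pde3a, passed an adjusted p of 0.05 in limma, and it was lower in CCH. Over the whole array 0.174% of the 31618 tested probes passed (55 probes), 0.0759% higher and 0.0980% lower. At an unadjusted p under 0.05 stood 13 of the 58 member probes (22.4%), 4 higher and 9 lower, against 15.4% of all tested probes (8.79% higher, 6.59% lower). The lowest and highest arrays of the groups did not overlap for 10 member probes (17.2%), against 11.3% of all tested probes. Of these 10, 4 had CCH above control (6.59% of all tested probes) and 6 had it below (4.70%). The median difference over the 48 genes was 0.04, with 29 higher and 19 lower. It was 0.015 over all tested named genes, read from their probe of highest mean signal, and 0.03 over all tested probes. The median absolute difference was 0.148 for members and 0.142 for all named genes, and 33 of the 48 member genes lay under 0.25. The usual size of a member's difference was thus close to that of all named genes.

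**Figure D1:**
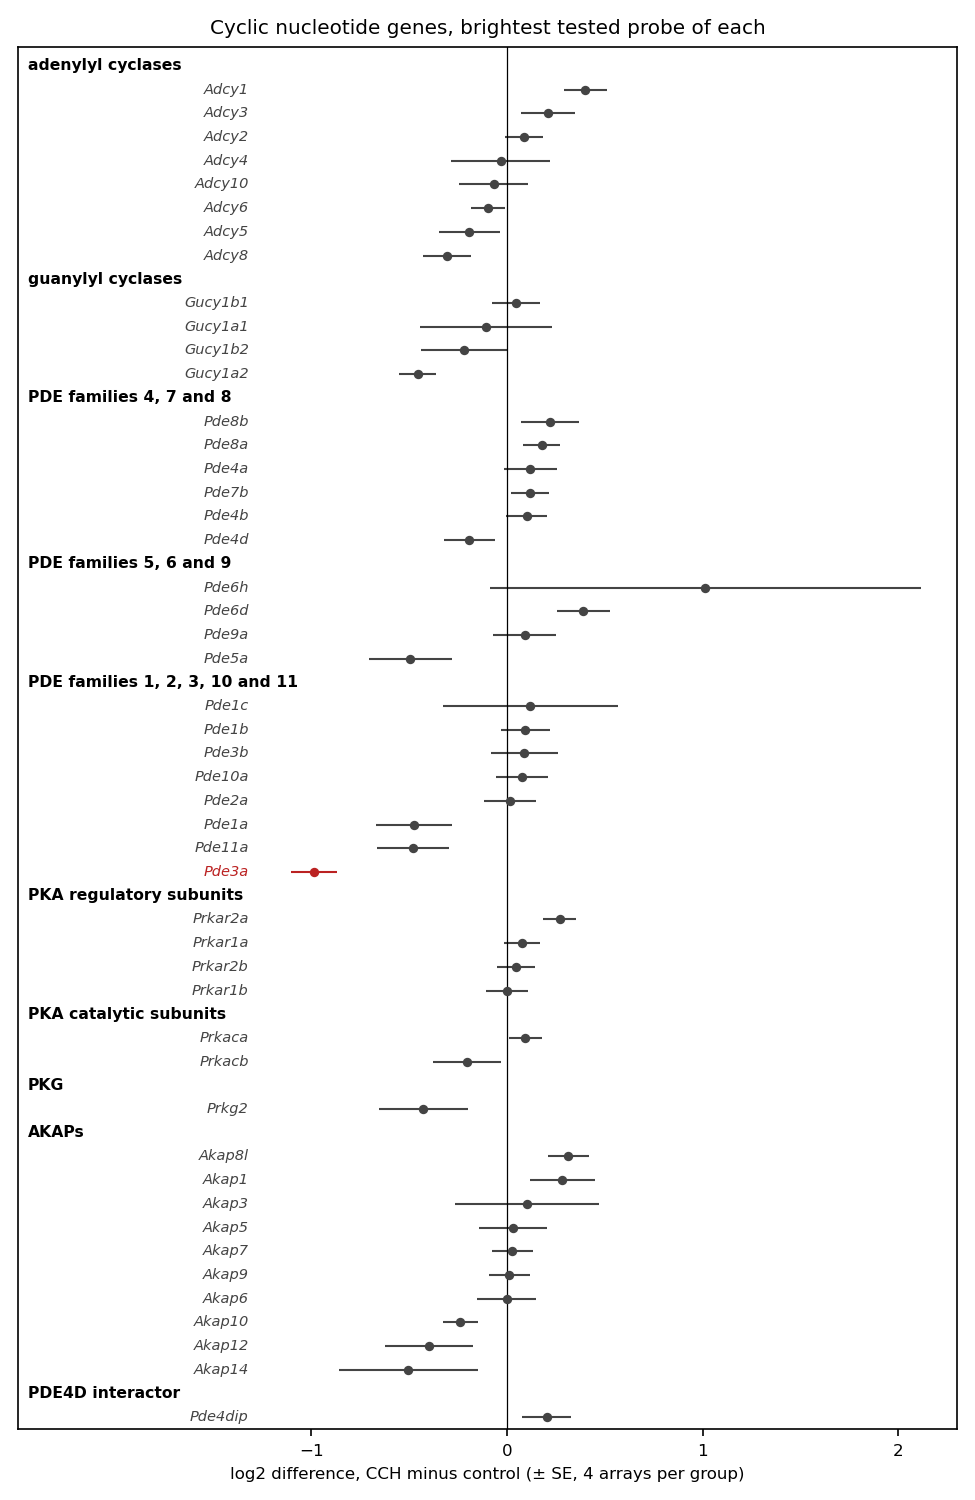
Log2 difference (CCH minus control, horizontal axis) of the tested probe with the highest mean signal for each of the 48 tested member genes, grouped by role, with bars of 1 standard error from limma and 4 arrays per group. Pde3a, in red, at -0.99, is the one member past the adjusted threshold, and Pde6h at 1.01 has the widest bar.

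Pde3a, a PDE that hydrolyses cyclic AMP and is inhibited by cyclic GMP, was lower in CCH. Its promoter window is printed here, and those of Gucy1a2, Adcy1, Akap8l and Pde6h below. They were picked from the members whose groups separated or in which a single array stood apart. Other such members, among them Akap10, Pde11a and Pde1a, have windows that are not printed. The printed windows are from RefSeq (assembly GRCr8) and have CG pairs in capitals. They run 5′ to 3′ from 250 bases before to 50 bases after the annotated start of the gene. Pde3a lies at chr4:175904026-175904325 on the plus strand and its window holds 18 CG pairs.
Pde3a: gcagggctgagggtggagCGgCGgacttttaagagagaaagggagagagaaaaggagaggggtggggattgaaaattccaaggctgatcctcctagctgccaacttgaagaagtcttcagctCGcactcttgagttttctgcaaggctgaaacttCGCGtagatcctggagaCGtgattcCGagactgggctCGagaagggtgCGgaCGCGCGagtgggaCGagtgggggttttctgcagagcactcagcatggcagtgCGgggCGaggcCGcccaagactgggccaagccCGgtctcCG

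The Pde3a probe (A_43_P11923) had levels of -5.99, -5.96, -5.72 and -5.63 on control arrays 1 to 4 and of -6.96, -6.69, -6.70 and -6.88 on CCH arrays 1 to 4. Every CCH array was below every control array. The difference was -0.99 ± 0.12 (SE, 4 arrays per group), with a limma adjusted p of 0.0352. This is a dim probe, and it entered the test through the group where it is high. Its processed signals were 11.03, 9.02, 11.3 and 11.8 in controls and 7.1, 7.3, 6.3 and 5.4 in CCH, and it was well above background on 4 of 4 control arrays but on 1 of 4 CCH arrays. The lowest level of any probe well above background was -7.05, -6.95, -6.78 and -6.73 on CCH arrays 1 to 4, so the CCH levels of Pde3a were close to that limit, and below it on CCH 4. The size of its difference rests on signals that 3 of the CCH arrays did not place well above background, and no fold is given. With detection required on all 8 arrays it was not tested, and with normexp background correction the difference was -0.32 (adjusted p = 0.245). The offset of 50 added in that correction is above all these signals and by itself shrinks the difference. The call was also lost with the choroid plexus covariate (-0.99, adjusted p = 0.147), with no detection filter (adjusted p = 0.0502), with a trended and robust variance (adjusted p = 0.0547) and without any one array other than CCH 1 (-1.04 to -0.92, adjusted p = 0.0868 to 0.123).

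Its close relative Pde3b had levels from -3.54 to -3.17 in controls and from -3.76 to -3.02 in CCH. These groups overlapped, and the difference was 0.09 ± 0.17 (SE). Among the other PDEs with broad or dual substrates, Pde11a and Pde1a pointed down without passing the test. Pde11a, a dual-substrate PDE known in brain chiefly from hippocampus, had levels of -3.91, -3.89, -3.78 and -3.55 in controls and -4.81, -4.02, -4.08 and -4.15 in CCH. The groups were apart, with CCH 1 the lowest, and the difference was -0.48 ± 0.18 (adjusted p = 0.265). Without CCH 1 it was -0.30. Pde1a, a PDE stimulated by calcium and calmodulin, had 1.80, 2.21, 1.62 and 2.02 in controls and 0.92, 1.62, 1.58 and 1.63 in CCH. CCH 1 was again the lowest array, and the other CCH arrays met the lowest control. Its difference was -0.47 ± 0.19 (adjusted p = 0.295), and -0.30 without CCH 1.

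Pde1b, Pde1c, Pde2a and Pde10a, the remaining genes of this class, had differences of 0.02 to 0.12. Pde2a, which is stimulated by cyclic GMP, ranged from 1.92 to 2.33 in controls and from 1.86 to 2.32 in CCH, and its difference of 0.02 ± 0.13 changed sign under several settings. Pde10a, best known from striatal projection neurons, ranged from 1.34 to 1.85 and from 1.52 to 1.82. Pde1c differed on a single array, with -2.51 on CCH 1 and between -4.54 and -3.76 on the other 7.

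PDE families 4, 7 and 8, which are specific for cyclic AMP, had 6 members, and each was tested. Of these, 5 had a positive difference and 1 a negative one (median 0.12), and none passed the test. Pde8b was at 0.22 ± 0.15, Pde8a at 0.18 ± 0.10, and Pde4a, Pde7b and Pde4b between 0.10 and 0.12. With normexp correction the dim probes of Pde8b and Pde7b turned to -0.04 and -0.15, and that of Pde8a was 0.02. Pde4d, whose many isoforms dock at different sites in the cell, had 3 tested probes with differences of -0.19, -0.02 and -0.52. The last of them matched another transcript record than the first and second, and spread from -5.00 to -3.19 within the controls alone. Pde4dip, the centrosomal and Golgi protein myomegalin that binds PDE4D, had a probe at 0.20 ± 0.12 and another at -0.14 ± 0.11.

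Of 9 guanylyl cyclase genes 4 were tested, 1 with a positive and 3 with a negative difference, and none passed. The smallest p was that of Gucy1a2, an alpha subunit of the soluble nitric oxide receptor. Its promoter window, at chr8:8784962-8785261 on the plus strand, holds 18 CG pairs.
Gucy1a2: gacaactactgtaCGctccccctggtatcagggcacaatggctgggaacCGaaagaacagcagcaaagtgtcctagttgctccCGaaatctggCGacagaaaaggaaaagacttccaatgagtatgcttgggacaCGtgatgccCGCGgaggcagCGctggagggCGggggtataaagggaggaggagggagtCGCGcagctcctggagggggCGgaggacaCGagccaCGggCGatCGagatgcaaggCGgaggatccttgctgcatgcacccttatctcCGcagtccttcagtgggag

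Both Gucy1a2 probes had non-overlapping groups. The first (A_44_P369825) read -1.41, -1.47, -1.66 and -1.47 in controls and -2.10, -1.93, -1.93 and -1.88 in CCH. Its difference was -0.46 ± 0.09 (SE), 1.37-fold lower, with an adjusted p of 0.0775. The second (A_44_P194097), a dimmer probe to the same transcript record, read -4.25, -4.10, -4.28 and -4.26 against -4.33, -4.81, -4.70 and -4.67. CCH 1 lay close to the controls on this probe, and the difference was -0.40 ± 0.12 (adjusted p = 0.165). Without CCH 1 the second probe passed the test (-0.50, adjusted p = 0.0399). With array weights both passed (adjusted p = 0.0347 and 0.0248). Calls over the whole array rose from 55 to 708 without CCH 1 and to 1339 with array weights. Under normexp correction the Gucy1a2 probes stood at -0.44 and -0.27. Gucy1a2 was thus the one member gene with more than 1 tested probe whose probes all separated the groups in the same direction, and it missed the threshold as processed here.

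**Figure D2:**
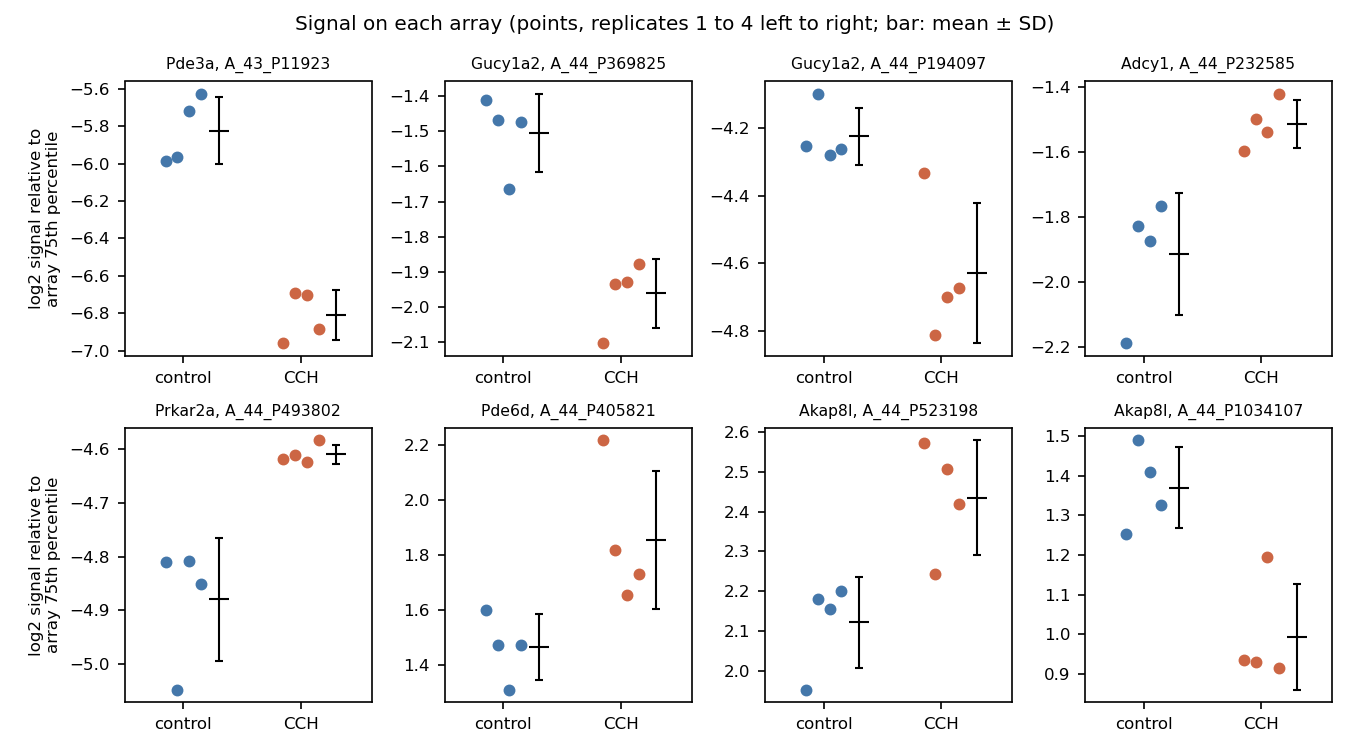
Levels (log2 signal relative to the 75th percentile of the array, vertical axis, own scale in each panel) of 8 member probes on each array, blue for control and orange for CCH, with the mean and SD of 4 arrays as bars. The panels were picked from the 10 member probes whose groups did not overlap, which also held for 11.3% of all tested probes. The 2 Akap8l probes point in opposite directions.

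The other subunits of the soluble enzyme had overlapping groups. Gucy1b1, the beta subunit that carries the haem, read 0.61, 0.86, 0.78 and 0.78 in controls and 0.49, 0.97, 0.83 and 0.92 in CCH, a difference of 0.05 ± 0.12. Gucy1a1, the other alpha subunit, read -1.70, -2.05, -1.75 and -1.99 against -0.94, -1.90, -2.61 and -2.48. CCH 1 was the highest of all 8 arrays and CCH 3 and CCH 4 the lowest, and the difference of -0.11 ± 0.34 became -0.45 without CCH 1. Gucy1b2 was dim (-6.45 to -5.48) and differed by -0.22 ± 0.22. The difference between Gucy1a2 and these subunits was not tested.

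All 8 adenylyl cyclase genes among the members were tested, 3 with a positive and 5 with a negative difference, and none passed. Adcy1 and Adcy8 are the forms stimulated by calcium and calmodulin, and they pointed in opposite directions. The Adcy1 window, at chr14:86124869-86125168 on the plus strand, is the most CG-rich of the members' windows with 60 CG pairs and 84.7% G and C. Its place follows the annotated start, and how much of it is coding sequence was not checked.
Adcy1: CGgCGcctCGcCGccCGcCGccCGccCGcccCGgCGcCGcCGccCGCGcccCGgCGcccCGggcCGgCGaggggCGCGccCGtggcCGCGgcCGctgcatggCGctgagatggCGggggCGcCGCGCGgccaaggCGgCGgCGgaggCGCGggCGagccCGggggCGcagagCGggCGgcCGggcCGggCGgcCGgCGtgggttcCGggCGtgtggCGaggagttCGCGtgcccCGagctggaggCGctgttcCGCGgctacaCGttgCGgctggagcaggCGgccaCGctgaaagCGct

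Adcy1 read -2.19, -1.83, -1.88 and -1.77 in controls and -1.60, -1.50, -1.54 and -1.42 in CCH. All CCH arrays were above all controls, the lowest being control 1. The difference was 0.40 ± 0.11 (SE), 1.32-fold higher (adjusted p = 0.149), and 0.25 with normexp correction. Adcy8 read 0.16, 0.23, 0.55 and 0.48 in controls and -0.10, -0.05, 0.20 and 0.14 in CCH. Here the groups overlapped, and the difference was -0.31 ± 0.12 (adjusted p = 0.290).

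The other cyclases stayed closer to 0. Adcy2, activated by G-protein beta-gamma subunits together with the stimulatory alpha subunit, ranged from 4.75 to 4.97 in controls and from 4.86 to 5.08 in CCH, a difference of 0.09 ± 0.09. Adcy3, found in neuronal cilia, differed by 0.21 ± 0.14, with CCH 1 the highest array. Adcy5 was at -0.19 ± 0.16. Without CCH 1 the differences of Adcy3 and Adcy5 were 0.09 and -0.06. Of the remaining forms, the calcium-inhibited Adcy6 was at -0.10 ± 0.09 on its brighter probe and 0.30 ± 0.23 on the dim one. Adcy4 (-0.03) and the soluble bicarbonate-sensitive Adcy10 (-0.07) were the last of the cyclases among the members. Adcy7 and Adcy9 had no member probe and were not measured here.

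None of the PKA regulatory subunits passed the test. In this group Prkar1a, Prkar1b, Prkar2a and Prkar2b all had a difference of 0.00 or above (median 0.06). Prkar2a was the largest, with -4.81, -5.05, -4.81 and -4.85 in controls and -4.62, -4.61, -4.62 and -4.58 in CCH. The groups did not overlap and the CCH arrays had an SD of 0.02, the smallest within-group SD of any tested member. The difference was 0.27 ± 0.09 (adjusted p = 0.193), and it turned to -0.07 with normexp correction. Prkar1a, on 2 probes, was at 0.07 ± 0.09 and 0.05 ± 0.10, Prkar2b at 0.05 ± 0.10 and 0.07 ± 0.13, and Prkar1b at 0.00 ± 0.11.

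Among catalytic subunits, Prkaca read -1.71 to -1.57 in controls and -1.70 to -1.50 in CCH, a difference of 0.09 ± 0.08. Prkacb had a difference of -0.20 on each of 2 probes, and on both CCH 1 was the lowest array (-1.57 on the first, where the other 7 lay between -0.96 and -0.72). Without CCH 1 these differences were -0.03 and -0.05. For PKG, Prkg2 was dim, with -5.22, -6.07, -5.87 and -5.04 in controls and -5.91, -5.85, -6.10 and -6.05 in CCH. Its groups overlapped and the difference was -0.43 ± 0.23 (adjusted p = 0.418). Prkg1 was well above background on 3 arrays and was not tested.

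Anchors did not move together. Of 10 tested AKAP genes 6 had a positive difference and 4 a negative one (median 0.02). Akap5, the postsynaptic anchor of PKA and calcineurin, ranged from 3.42 to 3.86 in controls and from 3.23 to 4.00 in CCH, a difference of 0.03 ± 0.17 whose sign turned under several settings. Akap6, Akap7 and Akap9 lay between 0.00 and 0.03. Akap1, which places PKA at mitochondria, was at 0.28 ± 0.17 and at 0.13 without CCH 1, its highest array. Akap10, which can hold both types of PKA, read 0.30, 0.26, 0.23 and 0.11 in controls and -0.17, 0.10, 0.02 and 0.00 in CCH. Its groups were just apart, and the difference was -0.24 ± 0.09 (adjusted p = 0.263).

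Akap8l, a nuclear protein related to the anchor AKAP8, had probes that contradicted each other. Its promoter window, at chr7:12012762-12013061 on the minus strand, holds 19 CG pairs and 1 copy of TGACG, the core of a CREB site, on either strand.
Akap8l: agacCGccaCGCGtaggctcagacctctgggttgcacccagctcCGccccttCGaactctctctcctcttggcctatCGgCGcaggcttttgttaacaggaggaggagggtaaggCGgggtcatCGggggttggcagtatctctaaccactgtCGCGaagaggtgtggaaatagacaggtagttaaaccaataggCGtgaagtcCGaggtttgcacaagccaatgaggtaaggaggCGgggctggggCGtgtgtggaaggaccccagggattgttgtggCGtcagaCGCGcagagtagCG

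Probe A_44_P523198 read 1.95, 2.18, 2.15 and 2.20 in controls and 2.57, 2.24, 2.51 and 2.42 in CCH, with CCH above control on every array. Probe A_44_P1034107 read 1.25, 1.49, 1.41 and 1.33 against 0.94, 0.93, 1.19 and 0.92, with CCH below control on every array. The differences were 0.31 ± 0.10 (adjusted p = 0.209) and -0.38 ± 0.10 (adjusted p = 0.137). Both probes match the same transcript record and both were well above background on all 8 arrays. No single direction can be given for the gene. Of the 9 member genes with more than 1 tested probe, Adcy6, Akap8l and Pde4dip had probes of both signs, and only in Akap8l did both probes separate the groups.

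PDE families 5, 6 and 9 act mainly on cyclic GMP, except that Pde6d is a carrier of prenylated proteins and not an enzyme. Pde6d read 1.60, 1.47, 1.31 and 1.48 in controls and 2.22, 1.82, 1.65 and 1.73 in CCH. The groups were just apart, with CCH 1 the highest, and the difference was 0.39 ± 0.14 (adjusted p = 0.230). Pde9a, which has a high affinity for cyclic GMP, differed by 0.09 ± 0.16. Pde5a, the cyclic GMP-specific PDE known from vascular smooth muscle, read -2.09, -2.83, -2.14 and -2.93 in controls and -3.15, -2.89, -2.82 and -3.10 in CCH, a difference of -0.49 ± 0.21 (adjusted p = 0.314).

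Controls 1 and 3 stood above the other 6 arrays for Pde5a, and the same was seen for Akap12 (gravin), which read -0.30, -1.11, -0.06 and -0.86 in controls and -0.89, -0.89, -0.97 and -1.17 in CCH. Its differences were -0.40 ± 0.22 and -0.41 ± 0.22 on 2 probes (adjusted p = 0.447 and 0.439). The score of 5 meningeal markers (Dcn, Col1a1, Col1a2, Slc13a3, Ptgds) was highest on the same arrays, at 1.78 on control 1 and 1.36 on control 3, with -1.48 and -1.20 on controls 2 and 4 and -0.84 to 0.47 on the CCH arrays. The score of 7 tested endothelial, pericyte and smooth muscle markers was also highest there, at 0.56 on control 1 and 0.27 on control 3, and between -0.48 and 0.17 on the other 6. The part of these cells in Pde5a and Akap12 was not tested. Akap14, an anchor of motile cilia, was low on the arrays where choroid plexus and ependymal markers were low. It read -2.79, -3.78, -2.88 and -2.91 in controls and -2.98, -4.38, -3.07 and -3.94 in CCH. The ciliary regulator Foxj1 read 1.43 on control 2, 0.94 on CCH 2 and 1.16 on CCH 4, and 1.89 to 2.79 elsewhere. The Akap14 difference of -0.50 ± 0.36 became 0.07 with the choroid plexus score as a covariate. Foxj1 is part of that score, and all 9 tested markers of the score were lower in CCH. Score and feed are thus partly mixed, and the part of these cells in Akap14 was not tested.

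**Figure D3:**
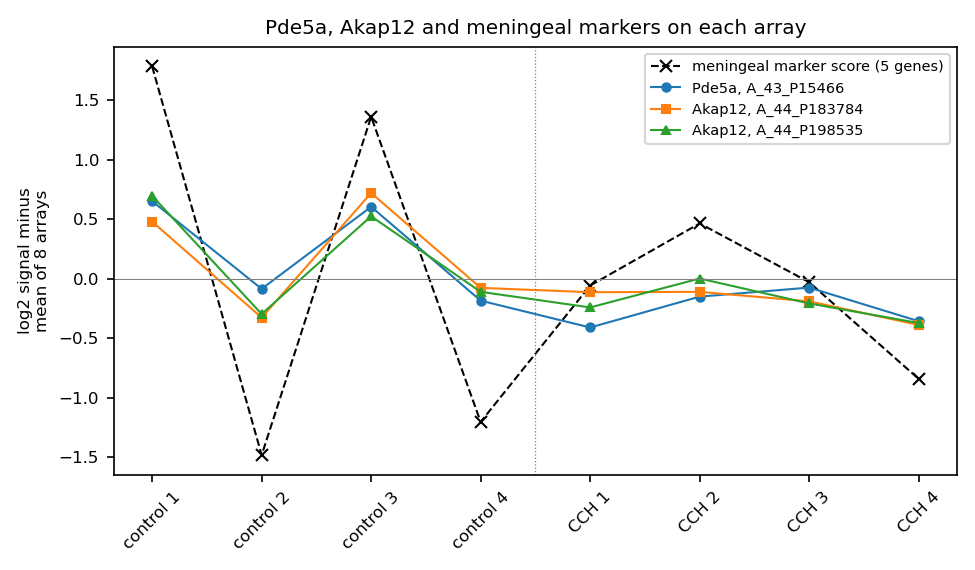
Levels of Pde5a and of both Akap12 probes on each of the 8 arrays, each minus its own mean over the arrays (log2, vertical axis), beside the mean centred level of 5 meningeal markers (dashed). All 4 lines are highest on control 1 and control 3, where the marker score is 1.78 and 1.36.

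Pde6h, the inhibitory subunit of the cone photoreceptor PDE, had the largest difference among members, and 1 array made it. Its promoter window, at chr4:171599138-171599437 on the plus strand, holds 11 CG pairs.
Pde6h: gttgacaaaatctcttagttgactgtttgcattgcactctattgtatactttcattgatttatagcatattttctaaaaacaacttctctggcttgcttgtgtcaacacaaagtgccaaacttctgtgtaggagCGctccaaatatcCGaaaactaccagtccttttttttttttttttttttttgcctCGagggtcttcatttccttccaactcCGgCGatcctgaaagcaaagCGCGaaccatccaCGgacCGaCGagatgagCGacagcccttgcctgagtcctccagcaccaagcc

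Levels of Pde6h were -5.22, -4.82, -2.90 and -4.28 in controls and 0.30, -4.32, -4.58 and -4.56 in CCH. CCH 1 stood far above the other 7 arrays and control 3 was the next. The difference was 1.01 ± 1.1 (adjusted p = 0.718), and without CCH 1 it was -0.18. Rod PDE subunits, too dim to be tested, followed the same array. Pde6a was at -6.06 on CCH 1 and at -7.75 on control 3, with the others at -8.94 or below, and Pde6b was at -5.77 on CCH 1 and -6.71 on control 3. Gucy2d, a membrane guanylyl cyclase, read -4.09 on CCH 1 and -7.37 on control 3, and between -9.34 and -7.85 elsewhere. The cyclic GMP-gated channel genes of photoreceptors, which are not members, had their highest level on CCH 1 as well, with Cnga1 at -1.48 and Cngb1 at -4.87.

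A list of 15 phototransduction and pineal genes, drawn up after these values were seen and therefore given without a test, had 12 genes with a probe. Of these, 11 were highest on CCH 1, and 10 had CCH 1 and control 3 as their 2 highest arrays. Tph1, the first enzyme of melatonin synthesis, was at 4.75 on CCH 1, 0.95 on control 3 and -4.06 or below on the other 6. Aanat, the enzyme that sets the rhythm of melatonin, was at 0.75 on CCH 1 and between -3.78 and -3.24 elsewhere. Prph2 was at 4.56 and 1.45 and Pdc at 1.70 and -0.06 on CCH 1 and control 3. The part of such cells in the member values was not tested.

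**Figure D4:**
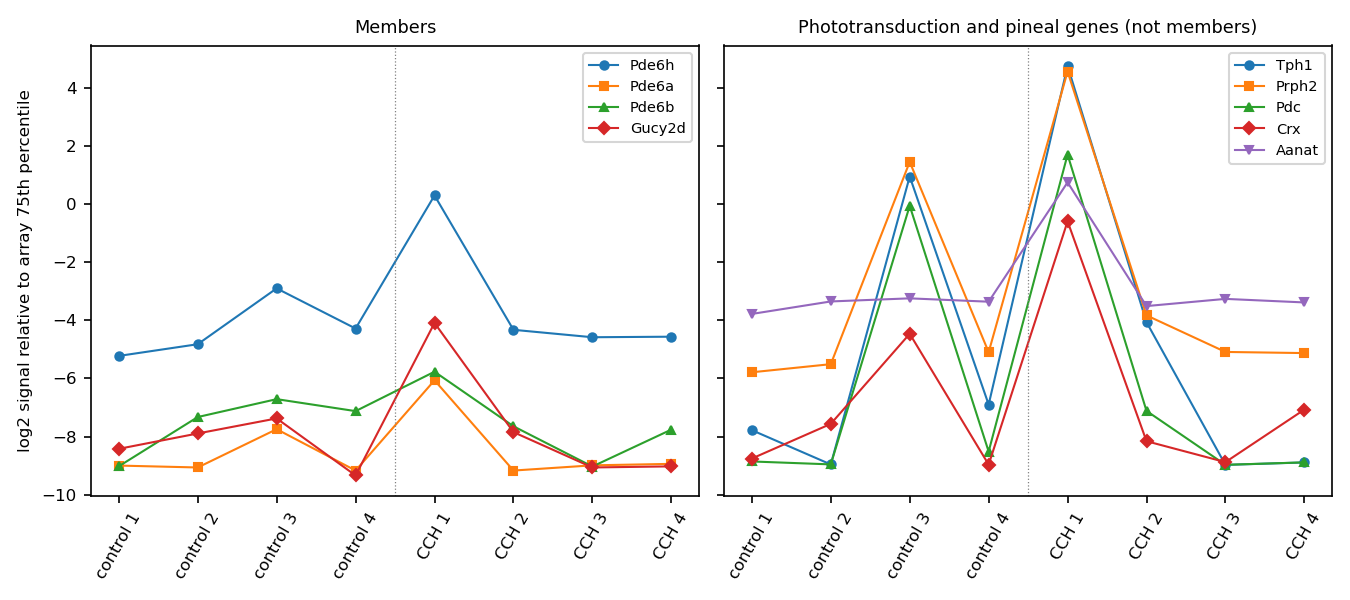
Levels (log2 signal relative to the 75th percentile of the array, vertical axis) of 4 members (left) and of 5 phototransduction and pineal genes (right) on each array, with a dotted line between control and CCH. CCH 1 is the highest point of each line, with 0.30 for Pde6h and 4.75 for Tph1, and control 3 is the next highest in each.

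CCH 1 was often at one end of the range in the members as a whole. It was the highest array for 14 and the lowest for 15 of the 48 tested member genes. No other array was the highest for more than 9 of them (CCH 4) or the lowest for more than 11 (control 3). The same counts were not made over all named genes, so they cannot be read as a trait of the members. The median SD within a group was 0.153 over members on control arrays and 0.193 on CCH arrays, beside 0.144 and 0.194 over all named genes.

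Genes too dim to test were Akap4, Gucy2c, Gucy2d, Gucy2e, Gucy2f, Gucy2g, Pde6a, Pde6b and Prkg1. Akap4, an anchor of the sperm tail, was well above background on CCH 2 alone (-6.28), and Gucy2c, the intestinal receptor for guanylin, Gucy2f and Gucy2g on 0 arrays. Gucy2e, another membrane guanylyl cyclase, was not like Gucy2d. It read -2.32 on control 1 and -3.31 on control 4 but between -9.31 and -6.57 on the other 6, with CCH 1 at -7.59.

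For dim members the size of a difference changed with normexp correction. That correction adds an offset of 50, above the signals of the dimmest probes, which by itself shrinks their log2 differences. It also moved the median of all tested probes from 0.03 to -0.06. A dependence on background was not separated from these effects. Of the 18 tested member probes with a mean level below -3, 6 changed sign between the processed signal and normexp correction, and the median absolute shift was 0.161. Of the 40 at or above -3, 2 changed sign and the median shift was 0.0240. Pde3a and Prkar2a belong to the dim probes, and Adcy1, Pde6d, both Akap8l probes and the first Gucy1a2 probe to the brighter ones.

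**Figure D5:**
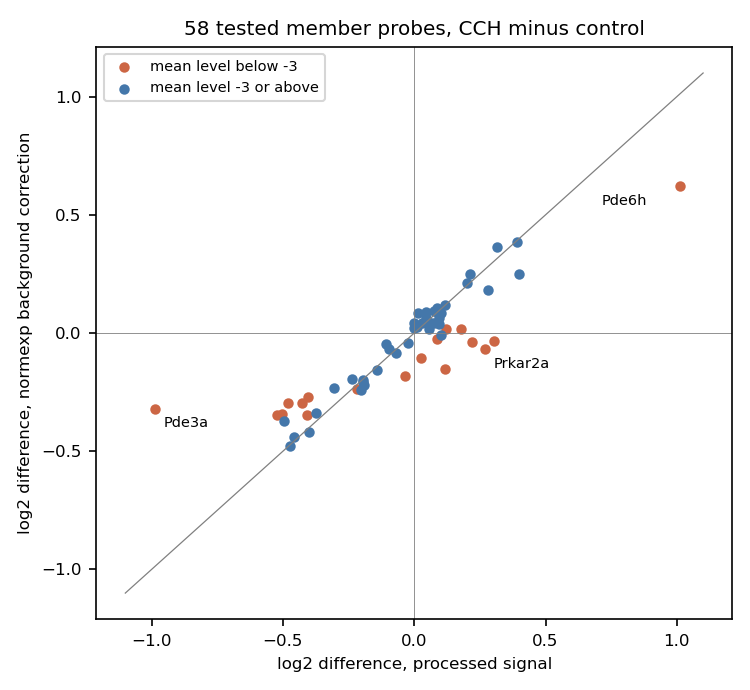
Log2 difference of each of the 58 tested member probes with the processed signal (horizontal axis) and with normexp background correction (vertical axis), with the line of equality and probes of mean level below -3 in orange. Pde3a moves from -0.99 to -0.32 and Prkar2a from 0.27 to -0.07, while most brighter probes stay near the line. The normexp offset of 50 by itself shrinks the differences of dim probes.

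Beyond the members, no gene of the pathway passed the test as processed here. From a list of 51 genes, 39 had a probe and 34 were tested on 45 probes. The count at the adjusted threshold in limma was 0, and 4 probes stood at an unadjusted p under 0.05, all of them lower, where 15.4% of all tested probes stood at that p and 6.59% were also lower. There were 19 genes with a positive and 15 with a negative difference (median 0.03). Among effectors, Bves, a membrane protein that binds cyclic AMP, read -4.05, -4.26, -4.47 and -4.23 in controls and -5.48, -4.78, -4.91 and -4.86 in CCH. All CCH arrays were lower, and the difference was -0.76 ± 0.17 (adjusted p = 0.0906). Without CCH 1 it was -0.60 and passed (adjusted p = 0.0473), as it did with array weights (adjusted p = 0.0323). In these settings calls over the whole array rose from 55 to 708 and to 1339. With normexp correction the Bves difference was -0.43 (adjusted p = 0.104).

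Of the G alpha subunits, Gnao1 was at -0.34 ± 0.14 and the stimulatory Gnas at 0.13 ± 0.13. Without CCH 1, Gnas was at 0.0066. The PKA inhibitor Pkib was at 0.18 ± 0.12 on its brighter probe and at -0.18 ± 0.19 on the dimmer one, and Pkia was at 0.15 ± 0.19. Their groups overlapped.

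In the CREB family, Crem was at 0.11 ± 0.10 and the coactivator Crtc1 at 0.10 ± 0.11. Crebbp, the CREB-binding acetyltransferase, differed by 0.04 on its brightest probe, by -0.34 ± 0.09 (adjusted p = 0.142, groups apart) on another and by 0.16 on the dimmest. The phosphatase inhibitors Ppp1r1a and Ppp1r1b, which PKA phosphorylates, were at -0.17 ± 0.14 and -0.10 ± 0.11. Genes upstream of cyclic GMP outside the members did not pass the test. The receptor cyclases Npr1 and Npr2 were at 0.12 ± 0.13 and 0.03 ± 0.11, the nitric oxide synthase Nos1 at -0.14 ± 0.11, and Npr3, the clearance receptor that removes natriuretic peptides and has no cyclase, at -0.32 ± 0.30. The exporters Abcc5 (0.16 ± 0.09) and Abcc4 (-0.11 ± 0.24), the peptide Adcyap1 (-0.08 ± 0.09) and its receptor Vipr2 (0.22 ± 0.10) did not pass it either.

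RefSeq promoter windows of 300 bases were found for 45 of the 57 members. The CREB site TGACGTCA, searched on both strands, was in 0 of these 45 genes and in 2.00% of the 27457 genes with a window. Its core TGACG, read as CGTCA on the other strand and also contained in the full site, was in 7 members (15.6%) and in 23.0% of all genes. A match is a description of the letters and not a bound site. The windows of the 38 tested members had a median of 20.5 CG pairs (0 to 60) and those of the 7 untested members 3 (1 to 16), beside 8 over all genes. Where a gene had several windows, the one with the most CG pairs was counted. Among members, only tested ones had several windows, which raises their counts. At least 10 CG pairs were in 29 of the 38 tested and in 2 of the 7 untested members. These counts describe the windows, and no difference between the sets was tested. The windows follow annotated starts, and whether they hold coding sequence was not checked.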

How the data were processed

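Each deposited scanner file holds the spots of 1 array. Per the file headers and the submitters' processing notes, the authors extracted them with Agilent Feature Extraction 9.5. Their processed signal is an intensity on a linear scale, with background and spatial trend removed and no normalization between arrays. The array grid is built on rn4. The deposited value table equals this intensity rounded to 3 significant digits. Slide and position come from the files.

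From there, control spots and spots marked as outliers (55 to 122 per array) were left out, log2 signals were set against the 75th percentile of each array, and spots of a probe were averaged. Probes were compared if well above background on at least 4 of 8 arrays, with at least 3 values per group. The comparison was the two-sided moderated test of limma (version 3.58.1, run in R 4.3.3). P-values were adjusted by Benjamini-Hochberg over the 31618 tested probes, and probes were called at 0.05. The fit was also run on simulated arrays with independent noise and no slide or array effect. That run could not test the mixing of feed and slide. A gene is represented by its tested probe of highest mean signal. RefSeq accessions named 15184 of 41012 probes (37.0%). Array measures were compared by exact permutation.

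Members and lists were chosen with earlier results of these data known, so no list was tested. Genes were named by a rule: members with a called probe, the 10 members with the smallest p in each direction, the member of highest signal in each role, members whose probes differ by over 0.5, untested members, and the 2 pathway genes with the smallest p in each group. Others were named after their values were seen, and a gene that the rule names is not reported here, although counts include it. Alternatives were normexp correction (offset 50, on the median spot and background signals, since the files used here have no mean signal column), other scalings, filters and variance models, array weights, a choroid plexus covariate, the value table, a replicate block and leaving out each array. Precision is limited by the 4 arrays per group.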

Additional observations from a re-analysis of the deposited data

Results flagged for a closer look

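In groups of 4 arrays, 1 array can stand apart from the other 3 by Dixon's ratio, which chance gives in about 1 in 20 groups. This was met in 13 of the 136 groups of member probes, 7 of them on CCH 1. The share over all probes was not counted, so the number cannot be read as a trait of the members. Adcy6 (second probe) was at -3.76 there, against -4.63 to -4.51 on the other CCH arrays. Pde1a was at 0.92, against 1.58 to 1.63. Pde1c was at -2.51, against -4.54 to -4.43. Pde6h was at 0.30, against -4.58 to -4.32. Prkacb (second probe) was at -3.41, against -2.86 to -2.77. Among untested probes, Gucy2g was at -7.69 on CCH 1 and Pde6a at -6.06 on CCH 1 and at -7.75 on control 3. Elsewhere, Akap14 was low on control 2 (-3.78), the second Gucy1a2 probe was high on control 2 (-4.10), Akap4 was high on CCH 2 (-6.28), the second Akap8l probe was high on CCH 3 (1.19) and Prkaca was low on CCH 3 (-1.70).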

How the results depend on the processing

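Feed lies on separate slides, which limits every comparison. Differences of dim probes changed with normexp, whose offset of 50 by itself shrinks them, and 4 arrays per group limit precision. A slide or scan block was not run, since it equals the feed term. Probes called numbered 55 as processed, 1339 with array weights, 215 with a trended and robust variance, 209 with detection on all 8 arrays, 189 with normexp, 29 without a filter, 1 with the choroid plexus covariate, 0 with the replicate block and 0 to 708 without 1 array (708 without CCH 1, 0 or 1 without any other). Members called numbered 1, 3 with array weights, 0 with the covariate, detection on all arrays (which leaves Pde3a untested), no filter, normexp, the block or the trended variance, and 0 to 2 without 1 array (2 without CCH 1, 0 without any other). Members at unadjusted p under 0.05 numbered 13, and 8 to 16 without 1 array (8 without control 3). Pathway genes called numbered 0, 1 with array weights (Bves), and 0 to 1 without 1 array (1, Bves, without CCH 1). The median difference of members stayed between -0.02 and 0.08 in all settings. Normexp moved the median of all tested probes from 0.03 to -0.06.

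Same-numbered arrays deviated together by r = 0.145, 0.0797, -0.0052 and 0.246, so the numbers were not taken as pairs. With the replicate block Pde3a was at -0.99 (adjusted p = 0.172).

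Over 43 named genes and all settings, 822 of 859 values kept direction and side of the threshold, 12 lost and 3 gained the call, and 22 changed sign. Only Pde3a was called as processed, so no other gene could lose a call. Pde3a lost its call in 12 settings and kept it in 7, so the pooled count is no measure of how stable that call is. The choroid plexus covariate gave Abcc4 0.13, Akap5 -0.17, Gucy1b1 -0.084, Npr3 0.017, Pde2a -0.056, Pde4a -0.013, Pkia -0.082 and Ppp1r1b 0.026. Normexp gave Pde7b -0.15, Pde8b -0.038 and Prkar2a -0.069. Array weights gave Pde2a -0.016 and quantile normalization gave it -0.0095. Without 1 array Abcc4 ranged from -0.25 to 0.048 (sign changed without control 1), Akap5 from -0.10 to 0.16 (CCH 2, CCH 4 or control 3), Gucy1b1 from -0.011 to 0.15 (CCH 2 or control 1) and Pde2a from -0.055 to 0.10 (CCH 1, control 1 or control 3). The cause was not tested.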
